A study of Mus musculus with 12 samples.

Results

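Acta2, Tagln, Myh11, Cnn1, Tnnt2, Nexn and Mgp encode proteins of the contractile apparatus and an inhibitor of calcification, and they are described here across 12 mouse liver RNA-seq libraries. These 7 of the 55903 genes in the expression table were chosen by their pattern in these same libraries, namely higher values in aged/doxo liver and lower values after KSL0608-Se. Their group differences are therefore a description and carry no test. Each gene was matched by its symbol, and 5 of the 7 had a mean of at least 1 TPM over the 12 libraries. Myh11 and Cnn1 did not. TPM is a transcript abundance scaled by gene length and by the total of the library, so levels can be compared between genes.

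There were 4 libraries in each of 3 groups. The young control group came from the liver of young mice described as control. The second group is titled as an aged control with the condition aged, but its description names doxo, read here as the DNA-damaging drug doxorubicin. It is called aged/doxo because the labels do not settle which of these it stands for. The third group was given a compound known by the code KSL0608-Se. Doxo also stands in the description of that group, so the aged/doxo and treated groups share it. By its title the study concerns clearing senescent cells with light, and the comparisons ask where these transcripts lie in young control, aged/doxo and treated liver. The sources used here give no strain, exact age, dose or interval and do not say how many animals stand behind the libraries, so the spread between libraries may be technical.

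Smooth muscle cells contract when myosin pulls on actin filaments, and the genes for this machinery are switched on together by serum response factor and its coactivator myocardin, which act through a DNA element called the CArG box. In liver these genes are known from the smooth muscle of portal and hepatic vessels, and Acta2 and Tagln also from hepatic stellate cells that have become myofibroblasts. Matrix Gla protein is activated by vitamin K and keeps calcium salts from depositing in vessel walls and cartilage. Bulk tissue cannot tell fewer cells of a type from less RNA per cell.

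Before the genes themselves, 3 libraries need naming. Heart muscle transcripts were present in young control library 1 and aged/doxo libraries 2 and 4. The sum of Myh6, Tnni3, Mybpc3, Myl2, Myl3, Actc1 and Mb, 7 genes of a fixed striated muscle list that were picked after their values were seen, was 16.2, 12.6 and 13.9 TPM there and no more than 0.27 TPM in the other 9 libraries. The treated libraries reached at most 0.15 TPM. Nppa, the gene of an atrial hormone, likewise seen first in the values, stood at 2.00, 1.37 and 1.55 TPM in these libraries and at 0 in the rest. Skeletal muscle genes of the same list were not all alike. Myh2, Myh4, Tnnc2, Mybpc1 and Atp2a1 were listed at 0 in all 12 libraries, whereas Neb and Tnnt1 had means of 3.08 and 1.75 TPM. Tnni2 reached 1.79 TPM in treated library 3. Ckm stood at 0.63, 0.51 and 0.54 TPM in the 3 libraries with heart transcripts and at 0 in the rest. Ttn was at 0 in those 3 libraries. Summed over its 45 genes, the striated list spanned 37.8 to 60.0 TPM in young control and 47.4 to 64.7 TPM in aged/doxo. In treated liver it spanned 44.2 to 77.3 TPM. Csrp3 and Tpm3, which were measured in every library, carry most of this sum except in aged/doxo library 2. There they stood at 8.28 and 10.28 TPM, and the 40 untested genes of the list summed to 21.8 TPM. In aged/doxo library 2 mitochondrial transcripts also made up 27.6% of TPM, against 8.10% to 12.4% elsewhere. All 16 hepatocyte markers checked passed the filter, with a summed level of 49172 TPM in aged/doxo library 2, 63708 TPM in young control library 1 and up to 98236 TPM elsewhere. These 2 libraries also had the fewest genes at 1 TPM or more, 9741 and 9568.

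**Figure D1:**
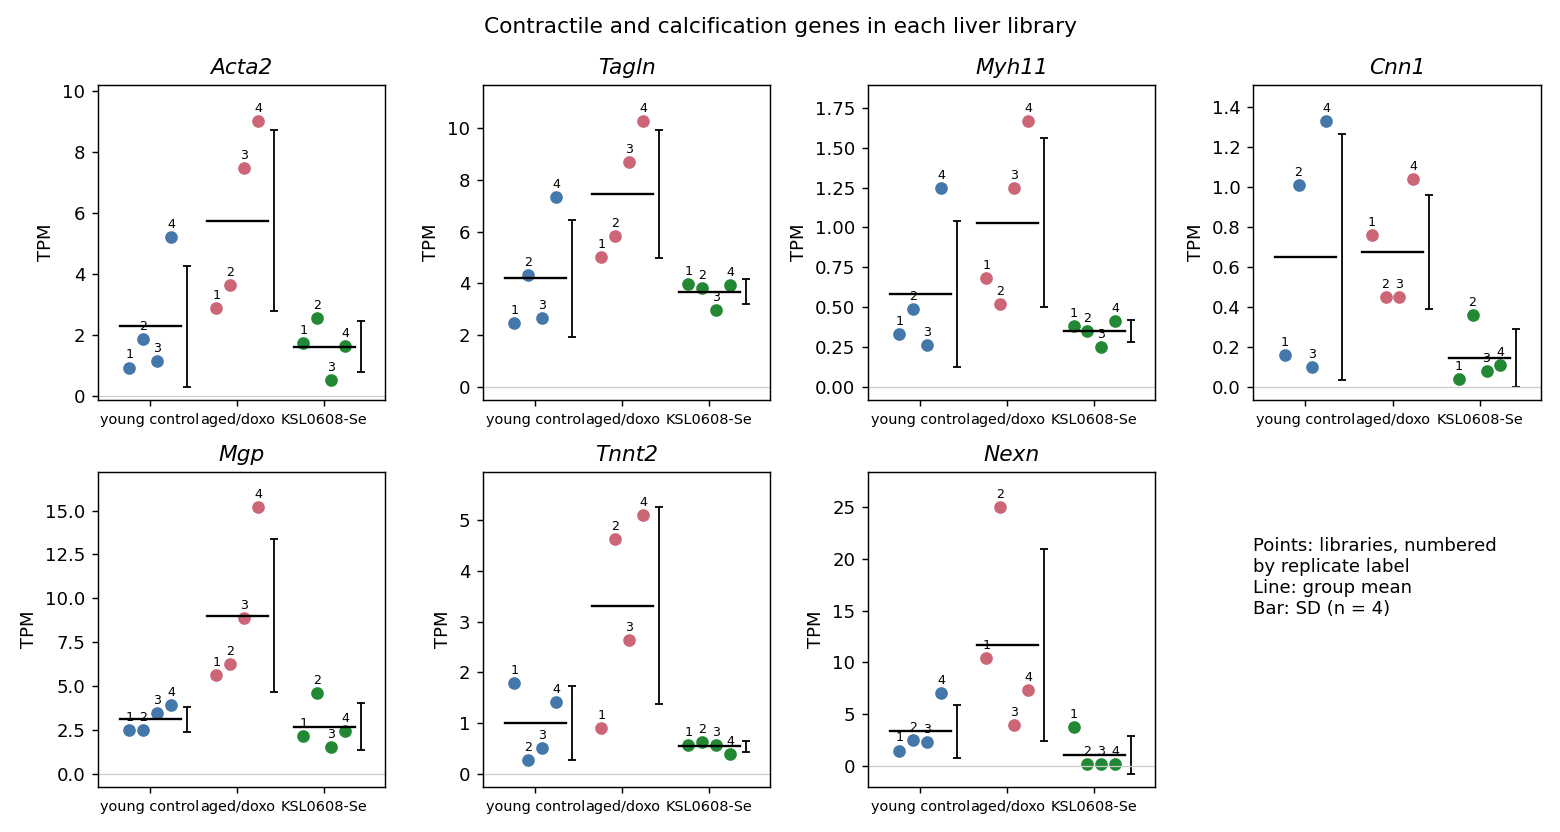
TPM of each of the 7 genes (vertical axes, linear, one panel per gene) in the 4 libraries of each group, with the replicate number beside each point, the group mean as a line and the SD as a bar (n = 4). In every panel the 4 treated points lie below the 4 aged/doxo points, and young control library 4 lies within the aged/doxo range for Acta2, Tagln, Myh11, Tnnt2 and Nexn.

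The 4 smooth muscle genes are given first. Acta2 encodes smooth muscle alpha-actin, the actin of the contractile filament, and lies on chromosome 19 from 34241090 to 34255590 on the minus strand (GRCm38, GENCODE M21). In order of library number it stood at 0.94, 1.86, 1.16 and 5.22 TPM in young control, at 2.89, 3.66, 7.48 and 9.02 TPM in aged/doxo and at 1.73, 2.58, 0.53 and 1.64 TPM in treated liver. All 4 treated libraries were below all 4 aged/doxo libraries, whereas young control library 4 was above aged/doxo libraries 1 and 2. Group means were 2.30 ± 1.99, 5.76 ± 2.96 and 1.62 ± 0.841 TPM (SD, n = 4), so the aged/doxo mean was 2.51 times the young control mean and 3.56 times the treated mean. On the log2(TPM + 1) scale the difference was 1.09 (SE 0.41) for aged/doxo minus young control and -1.32 (SE 0.41) for treated minus aged/doxo. Without the 3 libraries with heart transcripts these were 0.77 and -1.20. Acta2 shares most of its coding sequence with the other actin genes, so reads may be divided between them. Of those, Actg2 reached at most 1.46 TPM, and the cardiac actin Actc1 was above 0.15 TPM only in the 3 libraries with heart transcripts, at 2.31, 1.85 and 2.57 TPM. The skeletal muscle actin Acta1 stood at 1.09, 2.64 and 0.29 TPM in those 3 and at no more than 0.13 TPM elsewhere.

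The promoter of Acta2 is shown because the 4 smooth muscle genes are textbook targets of serum response factor. The RefSeq promoter table (GRCm38.p6, 32851 promoters) held windows for 3 of the 7 genes, Acta2, Cnn1 and Tnnt2, with 2 start sites for Tnnt2. The exact CArG box, CCNNNNNNGG with all 6 central bases A or T, was searched in the 250 bases before each start. The pattern reads the same on both strands. It was found in none of these 4 windows and in 1.47% of all promoters. A looser form with at least 5 of the 6 central bases A or T, tried after the exact search gave no match, occurred 2 times before Acta2 and not before Cnn1 or Tnnt2. At least 1 looser match was present in 8.59% of all promoters and 2 or more in 0.67%. In the lines that follow, printed 5′ to 3′ on the minus strand, capitals mark the match and lower case the 10 bases on each side, and the distances count back from the RefSeq start.
Acta2, match 84 to 75 bases before the start, chr19:34255438-34255467: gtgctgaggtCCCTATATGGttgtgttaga
Acta2, match 34 to 25 bases before the start, chr19:34255388-34255417: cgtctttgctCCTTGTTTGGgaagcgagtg
The Acta2 window spans 34255374 to 34255623, whereas the GENCODE M21 gene given above begins at 34255590 on the minus strand. Both matches therefore lie inside the gene as GENCODE annotates it. A match of letters is a description of these windows. No binding was measured here.

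Tagln encodes transgelin (SM22-alpha), an actin cross-linking protein that appears early in smooth muscle differentiation, and lies on chromosome 9 from 45929619 to 45936058, minus strand. It was measured at 2.47, 4.31, 2.65 and 7.34 TPM in the young control libraries, 5.01, 5.81, 8.68 and 10.3 TPM in aged/doxo and 3.97, 3.82, 2.96 and 3.94 TPM after treatment. The treated libraries were the most even of the 3 groups and again all lay below aged/doxo, while young control library 4 overlapped the aged/doxo range. Means were 4.19 ± 2.26, 7.45 ± 2.46 and 3.67 ± 0.479 TPM (SD, n = 4). The log2 difference was 0.75 (SE 0.29) for aged/doxo minus young control and -0.81 (SE 0.29) for treated minus aged/doxo. Exons of Tagln overlap those of Pcsk7 and of the antisense gene Gm48529 on the opposite strand. With strandedness not given, reads of these genes cannot be told apart. Pcsk7 was highest in young control library 2, at 9.89 TPM, and in treated library 4, at 9.58 TPM, libraries that were not the highest for Tagln.

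Myh11, the smooth muscle myosin heavy chain and the most restricted marker of mature smooth muscle in the set, lies on chromosome 16 from 14194535 to 14291372, minus strand. Its levels were low, with 0.33, 0.49, 0.26 and 1.25 TPM in young control, 0.68, 0.52, 1.25 and 1.67 TPM in aged/doxo and 0.38, 0.35, 0.25 and 0.41 TPM in treated liver. Only in young control library 4 and aged/doxo libraries 3 and 4 did it exceed 1 TPM. The aged/doxo mean of 1.03 ± 0.529 TPM was 1.77 times the young control mean and 2.96 times the treated mean (SD, n = 4). As a low gene it shows small log2(TPM + 1) differences, 0.36 for aged/doxo minus young control and -0.56 for treated minus aged/doxo. The first was 0.22 without aged/doxo library 4 and 0.94 with a pseudocount of 0.01, and the second -1.41 with that pseudocount.

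Cnn1 encodes calponin, an actin-binding protein that restrains myosin activity in smooth muscle, and lies on chromosome 9 from 22099216 to 22109630, plus strand. Young control libraries held 0.16, 1.01, 0.10 and 1.33 TPM, aged/doxo libraries 0.76, 0.45, 0.45 and 1.04 TPM and treated libraries 0.04, 0.36, 0.08 and 0.11 TPM. Young control and aged/doxo liver did not separate, with means of 0.650 ± 0.615 and 0.675 ± 0.284 TPM (SD, n = 4). The treated mean was 0.148 ± 0.145 TPM, and the aged/doxo mean was 4.58 times as high. The log2 difference for aged/doxo minus young control was 0.08, and it changed sign to -0.02, -0.06 and -0.08 without aged/doxo library 4 or without young control library 1 or 3. With pseudocounts of 0.1 and 0.01 in place of 1 it was 0.46 and 0.69. On the log2(TPM + 1) scale aged/doxo and young control liver thus differed by less than the spread between libraries. Low treated values are part of how the gene was chosen, so nothing is read from them. Young control libraries 1 and 3, at 0.16 and 0.10 TPM, lay within the treated range of 0.04 to 0.36 TPM.

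Tnnt2 encodes cardiac troponin T, which anchors the calcium-sensing troponin complex to the thin filament of heart muscle. It lies on chromosome 1 from 135836354 to 135852260, plus strand. It stood at 1.79, 0.26, 0.50 and 1.42 TPM in young control, 0.90, 4.64, 2.63 and 5.11 TPM in aged/doxo and 0.57, 0.63, 0.56 and 0.39 TPM in treated liver. Its highest library in young control was library 1, and its highest in aged/doxo were libraries 4 and 2, the same 3 libraries in which the heart genes were present. Aged/doxo library 3, at 2.63 TPM, held 0.27 TPM of the summed heart genes. Means were 0.993 ± 0.730, 3.32 ± 1.94 and 0.538 ± 0.103 TPM (SD, n = 4), and the log2 difference was 1.05 (SE 0.35) for aged/doxo minus young control and -1.36 (SE 0.35) for treated minus aged/doxo. Without the 3 libraries that held heart transcripts these became 0.66 and -0.77.

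Nexn encodes nexilin, a filament-binding protein of the Z-disc and of cell adhesions that is made in striated and smooth muscle, and lies on chromosome 3 from 152236982 to 152266350, minus strand. Levels were 1.48, 2.47, 2.31 and 7.07 TPM in young control, 10.4, 25.0, 3.99 and 7.30 TPM in aged/doxo and 3.77, 0.19, 0.15 and 0.14 TPM in treated liver. Treated libraries 2, 3 and 4 were close to 0, and treated library 1 stood far above them and just under the lowest aged/doxo library. Means were 3.33 ± 2.53, 11.7 ± 9.28 and 1.06 ± 1.81 TPM (SD, n = 4). The log2 difference was 1.44 (SE 0.57) for aged/doxo minus young control, -2.67 (SE 0.57) for treated minus aged/doxo and -1.24 (SE 0.57) for treated minus young control. Nexn alone made up 36.8% of the summed difference in mean TPM between aged/doxo and treated liver over the 7 genes, a share that was 23.4%, below the 27.4% of Mgp, without aged/doxo library 2. Leaving out the 3 libraries with heart transcripts gave 0.74 for aged/doxo minus young control and -2.19 for treated minus aged/doxo. Their part in the Nexn and Tnnt2 values was otherwise not tested.

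Mgp encodes matrix Gla protein and lies on chromosome 6 from 136872435 to 136875823, minus strand. It was at 2.49, 2.50, 3.45 and 3.90 TPM in the young control libraries, 5.65, 6.24, 8.89 and 15.2 TPM in aged/doxo and 2.14, 4.62, 1.53 and 2.41 TPM after treatment. Mgp was the only gene of the 7 whose aged/doxo libraries all lay above all young control libraries, and its young control libraries were the most even of its groups. The means were 3.09 ± 0.706, 8.99 ± 4.37 and 2.68 ± 1.35 TPM (SD, n = 4), so aged/doxo was 2.91 times young control and 3.36 times treated. The log2 difference was 1.21 (SE 0.30) for aged/doxo minus young control and -1.42 (SE 0.30) for treated minus aged/doxo. Without the 3 libraries with heart transcripts these were 0.94 and -1.21.

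The 7 genes were not expressed at one level. Averaged over the 12 libraries, Nexn, Tagln and Mgp were near each other at 5.36, 5.10 and 4.92 TPM, followed by Acta2 at 3.23, Tnnt2 at 1.62, Myh11 at 0.653 and Cnn1 at 0.491 TPM. Within each group the ranges of any 2 neighbours in the order of group means overlapped. In aged/doxo liver Nexn had the highest mean and Cnn1 the lowest. Without aged/doxo library 2 the Nexn mean was 7.24 TPM, below Mgp at 9.91 and Tagln at 7.99 TPM. After treatment Tagln had the highest mean, and Nexn lay behind Mgp and Acta2. Without treated library 1 the Nexn mean was 0.16 TPM, below each of the other 6.

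Set against the whole table, the treated libraries lay below all aged/doxo libraries for 7 of the 7 genes, where 0.624% of the 25019 genes with any value above 0 did so. For aged/doxo above young control the count was 1 of the 7, Mgp, where the share over all genes was 1.05%. No member separated downwards between treated and young control liver, where 0.32% of all genes did. The genes were chosen for high values in aged/doxo and low values in treated liver, so nothing is read from these counts. limma, a linear model fitted to log2(TPM + 1) of the 10883 genes with a mean of at least 1 TPM, called 0.00919% of genes at an adjusted p under 0.05 for aged/doxo against young control, 0.00919% for treated against aged/doxo and 0.0276% for treated against young control. These were 1, 1 and 3 genes. Both of the first comparisons use the same aged/doxo libraries, so a high value there enters both.

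**Figure D2:**
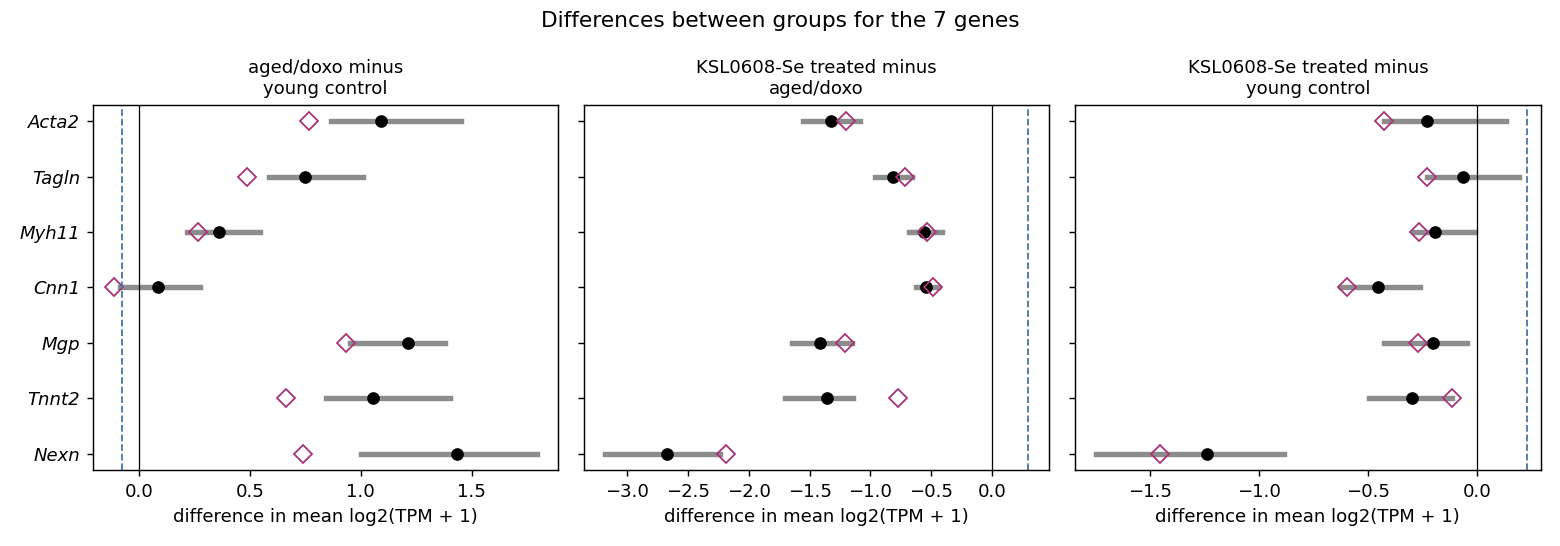
Difference in mean log2(TPM + 1) between groups (horizontal axes) for each of the 7 genes in the 3 comparisons. Black points are all libraries, grey bars the range when each library is left out in turn, open diamonds the values without young control library 1 and aged/doxo libraries 2 and 4, and the dashed line is the median of all 10883 genes tested (-0.08, 0.30 and 0.23). The 7 genes lie left of 0 and of the dashed line for treated minus aged/doxo, and the Cnn1 bar crosses 0 for aged/doxo minus young control.

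Over the 7 genes the median log2 difference was 1.05 for aged/doxo minus young control, where the median of all genes was -0.08. For treated minus aged/doxo it was -1.32 against 0.30 over all genes, and for treated minus young control -0.23 against 0.23. The shift of all genes depends on scaling. With median-of-ratios scaling the medians of all genes for treated minus aged/doxo and treated minus young control were 0.03 and -0.01, and those of the 7 genes -1.53 and -0.41. No scaling tried changed the sign of any of the 7 genes in any comparison. Without the 3 libraries with heart transcripts the medians of the 7 were 0.66, -0.77 and -0.27.

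Treated and young control liver overlapped for each of the 7 genes. Differences for treated minus young control ran from -1.24 for Nexn through -0.45 for Cnn1 and -0.30 for Tnnt2 to -0.06 for Tagln. Nexn was the gene furthest below young control, with treated libraries 2 to 4 under the lowest young control library at 1.48 TPM. For Acta2 and Tagln the sign depended on single libraries. Without young control library 4 the Acta2 difference went from -0.23 to 0.13 and the Tagln difference from -0.06 to 0.19, and without treated library 3 both were 0.01.

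The libraries differed in how consistently they were high. Aged/doxo library 4 ranked among the 5 highest of the 12 libraries for 7 of the 7 genes and was the highest for most. Aged/doxo libraries 2 and 3 were also among the 5 highest for 7 genes, tied at 0.45 TPM for Cnn1, and aged/doxo library 1 and young control library 4 for 6 each. No other young control library was among the 5 highest for more than 1 gene, and 1 treated library was so for 1 gene. The sum of the 7 genes was 9.66, 12.9, 10.4 and 27.5 TPM in young control, 26.3, 46.4, 33.4 and 49.6 TPM in aged/doxo and 12.6, 12.6, 6.06 and 9.04 TPM in treated liver. By this sum young control library 4 was above aged/doxo library 1. Young control library 4 also held 17.0 TPM of the 7 adipocyte markers summed, against 5.94 to 10.1 TPM elsewhere. Krt19 and Muc1, cholangiocyte markers picked after their values were seen, stood there at 12.4 and 9.54 TPM. Elsewhere they reached at most 3.63 and 1.22 TPM. Summed, the 18 cholangiocyte markers reached 179.35 TPM there and 178.55 TPM in aged/doxo library 4. Their part in the values of the 7 genes was not tested. Leaving out young control library 4 raised the aged/doxo minus young control difference of Acta2 from 1.09 to 1.45 and of Tagln from 0.75 to 1.01.

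**Figure D3:**
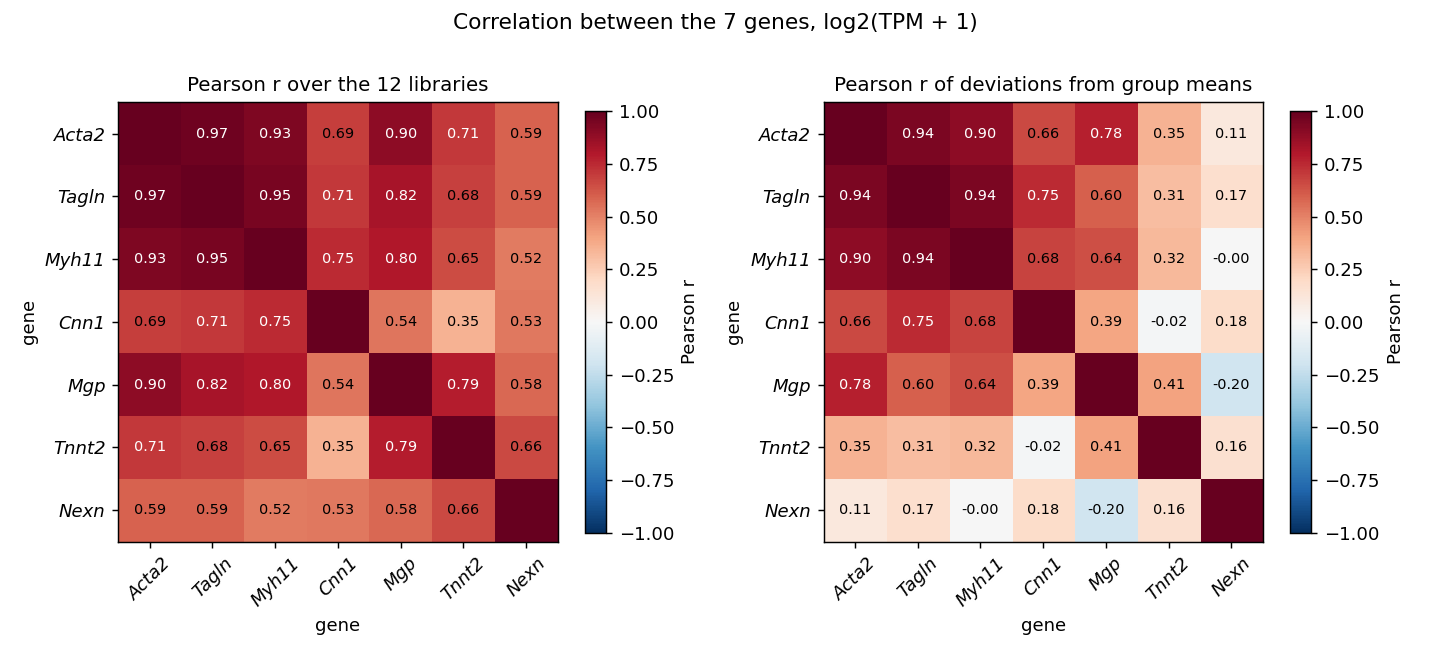
Pearson r between the 7 genes in log2(TPM + 1), over the 12 libraries on the left and after subtracting each group's mean on the right. Acta2, Tagln, Myh11 and Cnn1 stay positively related on the right, with r between 0.66 and 0.94, and the row of Nexn lies between -0.20 and 0.18.

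Over the 12 libraries all 21 pairs of the genes had a positive Pearson r, from 0.35 to 0.97 with a median of 0.69. The shared group pattern, for which the genes were chosen, enters these values. After each group's mean was subtracted, the median over the 21 pairs was 0.39, and the genes fell into unlike parts. The 6 pairs among Acta2, Tagln, Myh11 and Cnn1 kept r between 0.66 and 0.94, with the highest for Acta2 with Tagln and for Tagln with Myh11. Mgp followed Acta2 at 0.78. Pairs with Nexn ran from -0.20 to 0.18 and pairs with Tnnt2 from -0.02 to 0.41. Libraries high for their group in the smooth muscle genes were thus not regularly high for their group in Nexn or Tnnt2. Without young control library 4 the 6 smooth muscle pairs ran from 0.50 to 0.91, pairs with Nexn from -0.34 to 0.08 and pairs with Tnnt2 from -0.18 to 0.38. These values describe 12 libraries that share a fixed total of TPM, and no test was made on them.

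**Figure D4:**
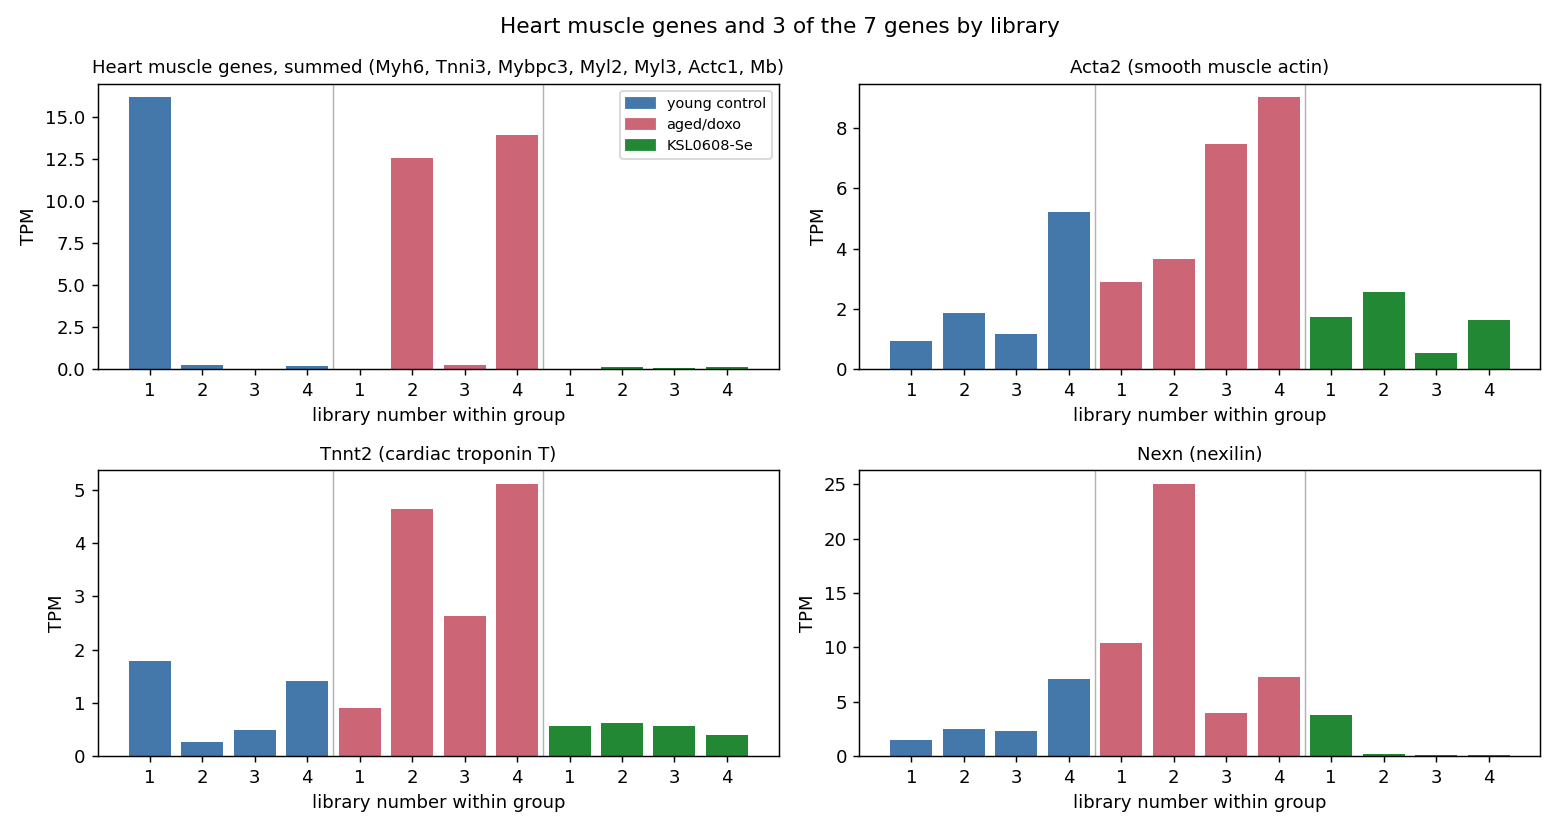
TPM (linear axes from 0) in each of the 12 libraries of the summed heart genes Myh6, Tnni3, Mybpc3, Myl2, Myl3, Actc1 and Mb, and of Acta2, Tnnt2 and Nexn, with colours for the groups. The heart genes stand at 16.2, 12.6 and 13.9 TPM in young control library 1 and aged/doxo libraries 2 and 4. Of these 3 libraries, Acta2 is the lowest of its group in young control library 1 (0.94 TPM). It stands at 3.66 TPM in aged/doxo library 2 and is the highest of the 12 in aged/doxo library 4 (9.02 TPM).

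Genes most like the 7 across the 12 libraries were named by the highest Pearson r among tested genes with an established symbol, leaving out the 7 themselves, some of which were more alike than any gene named here. For Acta2 and Tagln this was Myl9, the regulatory light chain of smooth muscle myosin, at r = 0.93 for each. Myl9 stood at 1.89, 2.10, 2.27 and 7.12 TPM in young control, 3.56, 5.55, 6.21 and 8.57 TPM in aged/doxo and 3.48, 3.73, 2.26 and 3.35 TPM in treated liver, so young control library 4 was high for it as well. Setd4, a SET-domain methyltransferase gene, followed at 0.87 for Acta2, and the collagen gene Col1a1 reached 0.81 for Tagln. Mrpl55, a mitochondrial ribosomal protein gene, was the likest to Myh11 outside the set (r = 0.90), and Slc29a3, a nucleoside transporter gene, to Cnn1 (r = 0.82).

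For Mgp the nearest genes outside the set were Dpt, which encodes the matrix protein dermatopontin (r = 0.87), Setd4 (0.86) and the chemokine gene Ccl21a (0.85). Dpt and Ccl21a shared with Mgp their highest library, aged/doxo library 4, at 6.66 and 10.2 TPM. For Tnnt2 they were Hint2, Ppp1r11 and Pfdn2 (r = 0.90, 0.89 and 0.88), none of them a muscle gene by name, and all 3 were highest in aged/doxo libraries 2 and 4. For Nexn they were Fxyd3, a regulator of the sodium pump (0.89), Alpk2 (0.81) and Nol12 (0.80). Fxyd3 stood at 2.05, 4.56, 1.19 and 1.88 TPM in aged/doxo and at 0.60, 0.06, 0.20 and 0.39 TPM in treated liver, with the same highest library as Nexn. Averaged over the 5 genes that pass the filter, the likest were Myl9 (0.79), Setd4 (0.76), Mthfd2l (0.73), Mustn1 (0.73) and Myg1 (0.73), then Plcd3, Slc15a5, Aurkaip1, Col1a1 and Ccl21a.

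Of 26 further smooth muscle genes, 18 were tested and none passed in any of the 3 comparisons (limma, adjusted over all genes), with 1, 0 and 2 at an unadjusted p under 0.05. Their median log2 difference was 0.18 for aged/doxo minus young control, with 13 of 18 genes above 0, where all genes had -0.08. For treated minus aged/doxo it was -0.01, with 9 above and 9 below 0, where all genes had 0.30. Myl9 was the nearest to passing between aged/doxo and young control liver, with 5.97 ± 2.07 against 3.35 ± 2.52 TPM (SD, n = 4) and a log2 difference of 0.78 (limma unadjusted p = 0.0319, adjusted p = 1.0). The actin cross-linker Flna, the smooth muscle protein Smtn and the musculoskeletal gene Mustn1 followed with 0.50, 0.32 and 0.33. For treated minus aged/doxo, Mustn1, Myl9 and the myosin phosphatase inhibitor Ppp1r14a had -0.44, -0.69 and -0.54, whereas the actin-bundling Actn1 had 0.45. Summed, the 26 genes spanned 107 to 207 TPM in young control, 125 to 213 TPM in aged/doxo and 177 to 234 TPM in treated liver.

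Of 20 measured genes of the serum response factor and myocardin system and the TGF-beta pathway, 12 were tested, and none passed in any comparison. Tgfbr1 was the 1 gene with an unadjusted p under 0.05, for treated against aged/doxo. The median was -0.05 for aged/doxo minus young control and 0.35 for treated minus aged/doxo, close to the medians of all genes. Srf itself had a log2 difference of -0.49 for aged/doxo minus young control, with means of 3.12 and 4.67 TPM, the opposite sign to Acta2. Myocd, the myocardin gene, had a mean of 0.01 TPM and was not tested. Ccn2, a matricellular target of TGF-beta, had 0.37 for aged/doxo minus young control. The TGF-beta receptor genes Tgfbr1 and Tgfbr2 had 0.40 and 0.57 for treated minus aged/doxo.

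Of the calcification and vitamin K genes, 30 were in the table and 18 were tested. None passed, with 0, 0 and 1 at an unadjusted p under 0.05 in the 3 comparisons. Their medians of -0.08 and 0.30 for aged/doxo minus young control and treated minus aged/doxo were those of all genes, and not those of Mgp. The bone genes Bglap, Bglap2, Ibsp and Sp7 were listed at 0 in all 12 libraries. Spp1, which encodes osteopontin, was nearest for aged/doxo minus young control with 0.44, at 32.0 against 22.9 TPM. Vkorc1l1, a vitamin K reductase gene, had -0.40, and Gas6, a vitamin K-dependent ligand, 0.36. For treated minus aged/doxo the bone morphogenetic protein gene Bmp2 had 0.45 and the phosphate transporter gene Slc20a2 had 0.74. Slc20a2 stood at 5.58 and 8.64 TPM in aged/doxo libraries 2 and 4. Its 18.56 and 19.45 TPM in aged/doxo libraries 1 and 3 lay within the treated range of 13.99 to 23.48 TPM.

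Among markers of cell types that could carry these genes, the portal fibroblast and matrix list lay furthest in the direction of the 7 genes apart from the erythroid list. Of its 30 genes 13 were tested and none passed, with 5, 2 and 0 at an unadjusted p under 0.05. Its medians were 0.48 and -0.22 for aged/doxo minus young control and treated minus aged/doxo, and 11 of 13 genes were on the side of the 7 in each. Dpt had 0.81 and -0.59, Col1a1 0.52 and -0.44, the elastin gene Eln 0.59 and the filament gene Vim 0.58 for the first of these, and Thy1, a fibroblast surface marker, -0.66 for the second. Thy1 was highest in the 3 libraries with heart transcripts, at 2.28 TPM in young control library 1 and 3.13 and 3.65 TPM in aged/doxo libraries 2 and 4. In aged/doxo libraries 1 and 3 it stood at 1.17 and 0.96 TPM, below the 1.70 TPM of treated library 2. The list summed to 28.2 to 44.2 TPM in young control, 44.2 to 87.0 TPM in aged/doxo and 37.2 to 51.8 TPM in treated liver. Its part in the values of the 7 genes was not tested.

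Of 17 hepatic stellate cell markers 14 were tested and none passed, with 0, 1 and 3 at an unadjusted p under 0.05. Their median was 0.12 for aged/doxo minus young control, with 12 of 14 above 0, and 0.16 for treated minus aged/doxo, with 3 of 14 below 0. Reln, the stellate cell gene of smallest p for treated minus aged/doxo, had a higher mean in treated liver. Its log2 difference was 0.83 (limma unadjusted p = 0.0313, adjusted p = 0.427). The groups overlapped, with 9.02 TPM in aged/doxo library 1 and 8.15 TPM in treated library 1, and aged/doxo library 2 was lowest at 2.11 TPM. Their summed level spanned 148 to 194 TPM, 132 to 264 TPM and 173 to 217 TPM in young control, aged/doxo and treated liver. Pericyte markers had medians of 0.01 and 0.09 over 5 tested genes, and large vessel endothelial markers 0.07 and 0.21 over 8. Cholangiocyte markers had medians of 0.03 and -0.20 over 7 genes, including Fxyd3 at -1.31 and Krt19 at -0.78 for treated minus aged/doxo, and did not pass. Mesothelial, Schwann cell and adipocyte lists had 3, 1 and 2 tested genes and gave no call. The mesothelial gene Slpi had 0.94 for aged/doxo minus young control and -0.59 for treated minus aged/doxo, the directions of the 7 genes. Its 1.03 TPM in aged/doxo library 3 was below young control library 4 at 1.15 TPM and treated library 4 at 2.3 TPM. In the same comparisons Krt18 had 0.22 and 0.003, and Krt8 had -0.14 and 0.36. Liver sinusoidal endothelial markers had medians of -0.03 and 0.58 over 11 tested genes, and hepatocyte markers had medians of -0.16 and 0.39. For treated against aged/doxo 6 sinusoidal genes were at an unadjusted p under 0.05 and none passed, with 9 differences above 0 and 2 below. Oit3, Gpr182 and Dnase1l3 had 0.80, 0.67 and 0.66. Stab1 went the other way at -0.83, and had 0.91 for aged/doxo minus young control, the direction of the 7 genes. It was highest in aged/doxo libraries 2 and 4, at 30.06 and 33.5 TPM.

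The erythroid list had medians of 0.81 and -0.70 over 6 tested genes, with 4 at an unadjusted p under 0.05 in each of these comparisons and none passing. These 4 were the alpha-globin pair Hba-a2 and Hba-a1 and the beta-globin pair Hbb-bt and Hbb-bs. Alas2, the first enzyme of haem synthesis in red cells, named after its values were seen, had means of 86.4, 88.1 and 98.0 TPM in young control, aged/doxo and treated liver. The summed haemoglobin and other erythroid genes spanned 837 to 1992 TPM in young control, 1839 to 2569 TPM in aged/doxo and 847 to 1779 TPM in treated liver. The part of blood in the values of the 7 genes was not tested. Of the 5 tested genes of the striated muscle list, Csrp3 and the troponin genes Tnnt1 and Tnnc1 among them, none passed, and the median was 0.25 for aged/doxo minus young control and 0.24 for treated minus aged/doxo.

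**Figure D5:**
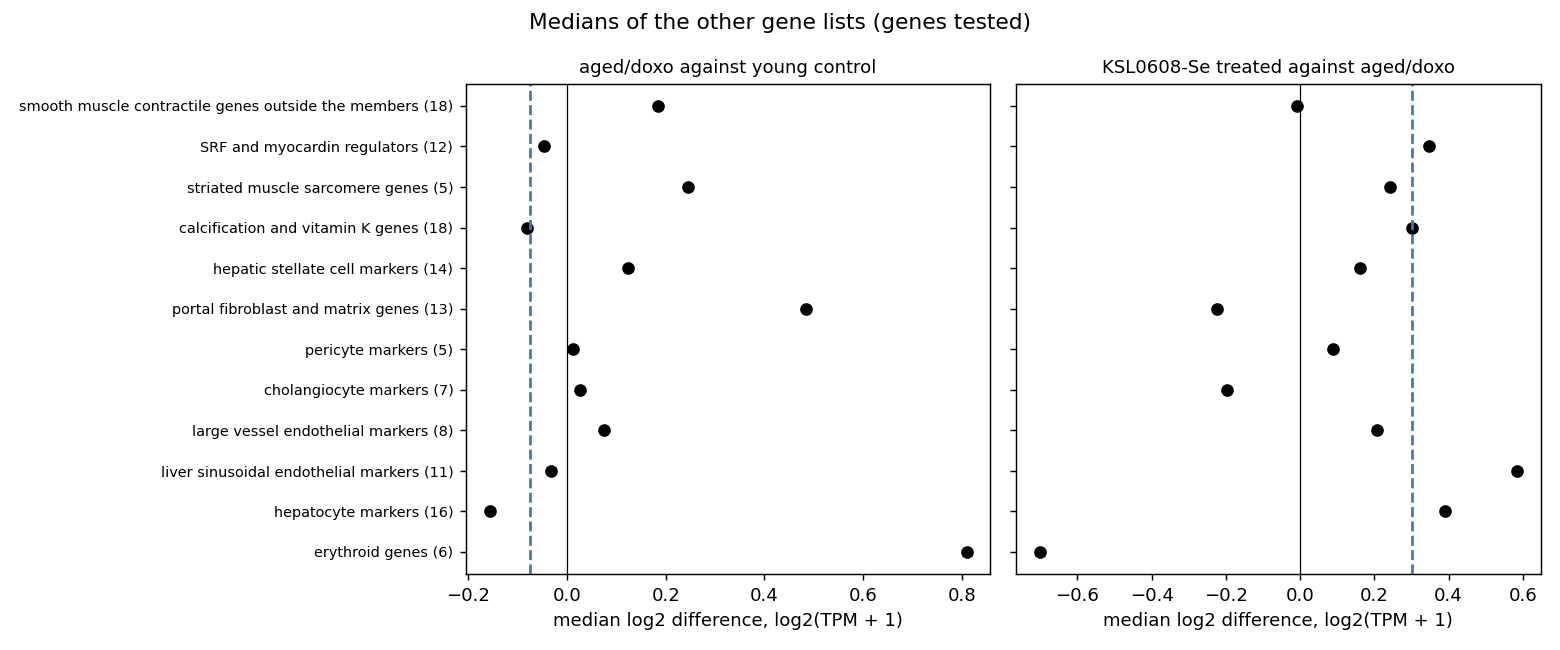
Median log2 difference in log2(TPM + 1) of the tested genes of 12 lists (number tested in brackets) for aged/doxo minus young control and treated minus aged/doxo, with the median of all 10883 genes as a dashed line. The erythroid list (0.81 and -0.70) and the portal fibroblast and matrix list (0.48 and -0.22) lie furthest right on the left side and furthest left on the right side, and the calcification and vitamin K list lies on the dashed line in both.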

How the data were processed

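The deposited values are TPM made by the authors for 55903 genes in 12 libraries, rounded to 2 decimals. The submitters' processing notes name fastp, HISAT and RSEM without versions or order. Genome build, annotation release and strandedness: not given in the sources used here. Sequencing depth cannot be read from TPM, and values carry no counting interval. No 2 libraries held identical values, and 3 columns of group means were not used.

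Values were taken as log2(TPM + 1), a scale that shrinks differences of low genes. Group was fitted to all 12 libraries with limma 3.58.1 (R 4.3.3) and an intensity trend, for the 10883 genes with a mean of at least 1 TPM, two-sided, with Benjamini-Hochberg adjustment and a threshold of 0.05. The procedure was tested on simulated data. The 7 genes and the 15 gene lists were chosen with earlier results of these data known. From each list up to 4 genes of smallest p in the comparison described were named, with the 3 genes most correlated with each of the 7 and the 10 of highest mean correlation. Differences printed for genes of low mean that were not tested are plain differences of group means. Positions come from GENCODE M21 and promoter sequences from RefSeq (GRCm38.p6). Alternatives covered the pseudocount, the filter, scaling, group medians, a replicate block, the compared groups alone and leaving out libraries. Figures were drawn with matplotlib 3.10.9.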

Additional observations from a re-analysis of the deposited data

Results flagged for a closer look

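Each of the 21 combinations of gene and group was checked for a library that stands apart from the other 3, by Dixon's test at the 95% level on the gap to the nearest library as a part of the group's range in log2(TPM + 1). By chance about 1 in 20 groups is picked out in this way. There were 2 such values, both in treated liver. Nexn stood at 3.77 TPM in treated library 1, with a gap of 0.970 of the range, and between 0.14 and 0.19 TPM in the other 3. Without this library the Nexn difference for treated minus aged/doxo was -3.18 in place of -2.67. Tagln stood at 2.96 TPM in treated library 3, with a gap of 0.865 of the range, below 3.82 to 3.97 TPM in the other 3. Without it the Tagln difference was -0.74 in place of -0.81.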

How the results depend on the processing

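The sign for treated minus aged/doxo follows from the choice of genes high in aged/doxo and low in treated liver, so its stability is not counted. For aged/doxo minus young control Cnn1 changed sign under 4 alternatives. For treated minus young control Acta2 and Tagln changed sign under 3 each, where group medians in place of means gave 0.11 and 0.15. The median of the 7 genes for treated minus aged/doxo moved from -1.32 to -1.87 with a pseudocount of 0.01 and to -0.77 without young control library 1 and aged/doxo libraries 2 and 4, a choice made after seeing the data. With the smaller pseudocount Nexn went from -2.67 to -4.67 and Cnn1 from -0.54 to -2.44. Leaving out each library in turn gave medians from 0.84 to 1.32 for aged/doxo minus young control, from -1.55 to -1.08 for treated minus aged/doxo and from -0.40 to -0.11 for treated minus young control.

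The counts of genes called over the whole table are small and unstable. For aged/doxo against young control, 1 gene became 2 with a pseudocount of 0.1 or 0.01 or with quantile normalization, 3 with median-of-ratios scaling or a total without the 50 most abundant and the mitochondrial genes, and 0 without the filter, with the compared groups alone or without the 3 libraries, and 0 to 2 when each library was left out. For treated against aged/doxo, 1 became 0 with a pseudocount of 0.01, without the filter, with each of the 3 scalings, without aged/doxo library 2 together with young control library 1, or without the 3 libraries, 2 with the compared groups alone, and 0 to 1 on leaving out each library. For treated against young control, 3 became 1 without the filter or with the compared groups alone, 5 with the reduced total, and 1 to 5 on leaving out each library. None of the 15 lists held a called gene under any of 23 alternatives.

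With the replicate number as a replicate block the counts were 0, 0 and 1. The block leaves the differences of the 7 genes as they are. Deviations from the group means in log2(TPM + 1), over the genes tested, were correlated between libraries of different groups. For same-numbered libraries r lay between -0.58 and 0.39 over 12 pairs, with 2 above 0.1. The deviations of young control library 1 and aged/doxo library 2, with unlike numbers, correlated at 0.58, so other differences between libraries enter these values. The labels state no pairing by number, and these correlations cannot show that it is absent. Depth is unknown for TPM, which limits most the genes under 1 TPM, Myh11 and Cnn1, and Nexn in treated liver.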
